A study of Mus musculus with 12 samples.

Results

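Sequences of 17 to 22 nt whose last 3 bases were CCA, the ending of mature tRNAs, were taken from a table of small RNA sequences in mouse testis. The table held 1018402 sequences, of which 992 met this rule, beside 105022 others of the same lengths. The rule used length and bases only, no measured level. All libraries came from total RNA of testis of 4-month-old male C57BL/6 mice, in which small RNAs of 17 to 40 nt were sequenced with a method the labels call 10ng-seq. After oxidation with sodium periodate (NaIO4) there were 2 technical replicates each at 10, 50 and 100 ng of input RNA, and before oxidation there were likewise 2 at 10, 50 and 100 ng. The 12 libraries form 6 groups, and all of them carry spike-in RNAs with and without a 3′ terminal 2′-O-methyl group. Because the replicates are technical, each p below speaks of library-to-library spread only, not of mice.

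Periodate attacks a 3′ end whose last ribose carries free 2′ and 3′ hydroxyls, and the attacked end can no longer be joined to a sequencing adapter. A 2′-O-methyl group protects the end. In testis the main RNAs with this group are piRNAs, which guide PIWI proteins against transposons and other transcripts and are longer than miRNAs. A mature tRNA ends in CCA, which an enzyme adds after transcription and onto which the amino acid is loaded, and 3′ tRNA fragments cut in the T arm keep that ending. The last ribose of an uncharged tRNA carries free hydroxyls. In the T arm a nearly invariant pair closes the T loop, and its C is the base 16 from the 3′ end.

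Members sharing their last 17 bases were taken as 1 shared 3′ end, which gave 807 ends, numbered from the highest to the lowest mean level. A member is called continued where its last 17 bases also occurred inside a table sequence of 23 to 40 nt that ran on past the CCA. It is called terminal where they did not. This split was made after the values had been seen, uses sequence alone and carries no test. It gave 109 terminal members with 84 ends and 883 continued members with 723 ends. Were sequences under 23 nt also counted as continuations, 9 members would change class, among them all 5 of end 3, whose last 17 bases lay inside 2 such sequences with 0.349 RPM after oxidation and 0.115 RPM before it in sum.

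The terminal members below are 8 of those tested, chosen to show the sequences of ends 3, 4, 5, 6 and 12. Ends 2 and 10 are described by rank and length only. Capitals mark the last 3 bases and the base 16 from the 3′ end.
end 3, 17 nt: tCccggccaatgcaCCA
end 3, 18 nt: ttCccggccaatgcaCCA
end 3, 19 nt: tttCccggccaatgcaCCA
end 4, 17 nt: cCccacgttgggcgCCA
end 5, 17 nt: tCtcggtgggacctCCA
end 5, 18 nt: atCtcggtgggacctCCA
end 6, 18 nt: ttCccggccaacgcaCCA
end 12, 17 nt: cCccggcatctccaCCA

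Ends 3 and 6 differed at 1 of their last 17 bases, T11C counted from the 5′ end of the shared 17 bases with end 3 first. The forms of end 3 from 17 to 21 nt were nested, each adding 1 base at the 5′ side. End 12 was the only one of these ends that also closed longer sequences. Its 7 longer forms reached 39 nt and together averaged 14.0 RPM after oxidation and 0 RPM before it. The longest is shown with a TTCGA run, the T-loop letters common in tRNAs, and the last 3 bases in capitals.
end 12, longer form: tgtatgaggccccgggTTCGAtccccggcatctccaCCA

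Continued members are shown with capitals on the last 3 bases. Beside them stand 3 longer sequences of the table that hold them, with capitals on the bases that follow the CCA.
end 1, 17 nt: taggcccagaaactCCA
end 1, 20 nt: tcctaggcccagaaactCCA
end 7, 20 nt: tggagaatctctgagcaCCA
end 8, 19 nt: tgacttagtactggggCCA
end 9, 20 nt: taactgagatgctgagaCCA
end 11, 22 nt: tagacttctagaattaagcCCA
end 1, longer form: taggcccagaaactccaTGGaatacatcga
end 7, longer form: tggagaatctctgagcaccaTGGagccagc
end 9, longer form: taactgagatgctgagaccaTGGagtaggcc

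The name "tRNA 3′ end" was thus borne out for the abundant terminal members only in part of its features, and not for the continued ones. C stood at the base 16 from the 3′ end in 48 of the 109 terminal members (44.0%), against 23.3% of the continued members and 19.5% of the other sequences of these lengths. Members with this C made up 99.1% of the terminal RPM after oxidation and 94.9% before it. Most of the terminal RPM lay in ends 2, 3, 4, 5, 6, 10 and 12, so these percentages speak of few sequences. In the continued members, those with this C made up 6.51% of the RPM after oxidation and 11.3% before it. In the other sequences of 17 to 22 nt they made up 17.6% after and 20.4% before. The most abundant of all 992 members, end 1 of 17 nt, is the start of a 30-nt sequence that itself averaged 735 RPM after oxidation and 888 RPM before it. Of the continued RPM, 97.9% after oxidation and 95.6% before it lay in members that are the 5′ start of a longer sequence in the table. No tRNA identity is given here. Sequence could be read for 35 of the 430 tRNA genes in the RefSeq list, 22 of them mitochondrial, and 0 members matched the 3′ end of any of these with CCA added.

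The reads behind single members were few. Of the 992 members, 334 had 1 read over all 12 libraries and 841 had fewer than 10. Reads were found only after oxidation for 182 members, only before it for 680 and in both states for 130. After oxidation the 10 ng libraries held 57 and 39 members, the 50 ng libraries 110 and 98 and the 100 ng libraries 125 and 112, against 165 to 270 members in the libraries before it. The deposited unit is RPM, reads scaled to a common library total, and 1 read was worth 0.299 to 0.520 RPM. Replicates after oxidation at 10 ng agreed less (r = 0.47 across tested sequences, on the log2 scale) than those of the other groups (0.78 to 0.94). Results are therefore also given without the 10 ng libraries.

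Summed over all members, short CCA-ended sequences stood at 3221 and 4535 RPM after oxidation against 791 and 787 RPM before it in the libraries from 10 ng. At 50 ng the sums were 1904 and 1824 RPM after oxidation and 679 and 672 RPM before it. At 100 ng they were 1639 and 1797 RPM after oxidation and 625 and 583 RPM before it. The 6 sums after oxidation, 2487 ± 1158 RPM, lay above all 6 before it, 689 ± 84.6 RPM (SD, n = 6 libraries each). On the log2 scale the mean difference was 1.75, and 1.49 without the 10 ng libraries. Scaled to the methylated spike-in reads instead, the same sums were lower after oxidation, by -1.24 on the log2 scale. The difference in RPM lay in the 24 members with a mean of at least 5 RPM, which summed to 2297 ± 1101 RPM after oxidation and 508 ± 80.2 RPM before it. The other 968 members summed to 189 ± 62.9 RPM after oxidation and 181 ± 11.4 RPM before it, with ratios of means, after over before, of 1.44 at 10 ng but 0.839 at 50 ng and 0.830 at 100 ng. Those above this mean were partly chosen by their level after oxidation.

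RPM is a share of each library, and the sign of several values here depended on the scale. miRNA reads, whose 3′ ends are mostly unprotected, made up 303 ± 74.7 RPM after oxidation and 128190 ± 8611 RPM before it. Methylated spike-in reads numbered 212579 to 300939 per library after oxidation and 28325 to 42523 before it. Scaling to them moved the median log2 fold change of all tested sequences, averaged over inputs, to -2.59, from -0.14 in RPM. Per 1000 methylated spike-in reads, the members had 24.1 ± 3.82 reads after oxidation and 57.6 ± 13.8 before it, while the other sequences of 17 to 22 nt had 351 ± 56.6 after and 2053 ± 262 before. The members thus made up 6.50 ± 1.27% of the 17 to 22 nt RPM after oxidation and 2.70 ± 0.296% before it, a share that no scaling of libraries alters.

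Terminal and continued members differed in how this rise was spread over the inputs. The terminal members summed to 2347 and 3596 RPM after oxidation at 10 ng, 313 and 491 RPM at 50 ng and 232 and 288 RPM at 100 ng. Before oxidation they summed to 138 and 127 RPM at 10 ng, 84.5 and 64.2 RPM at 50 ng and 74.5 and 60.4 RPM at 100 ng. The ratio of the means, after over before, for 10, 50 and 100 ng was thus 22.4, 5.40 and 3.86. Per 1000 methylated spike-in reads, the terminal members were higher after oxidation at 10 ng, with a ratio of 1.61, but lower at 50 ng (0.809) and at 100 ng (0.707).

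Continued members summed to 874 and 940 RPM after oxidation at 10 ng, 1591 and 1333 RPM at 50 ng and 1407 and 1509 RPM at 100 ng. Before oxidation their sums lay between 522 and 659 RPM in all 6 libraries. Their ratios of means for 10, 50 and 100 ng were 1.38, 2.43 and 2.72, lowest at the input where that of the terminal members was highest. End 1 alone averaged 919 of their 1276 RPM after oxidation and 357 of their 598 RPM before it. Its ratios were 1.36, 3.09 and 3.51, so the order in the sums rests largely on 1 end. Among the other continued ends of the 12 highest, the ratio was lowest at 10 ng for ends 7, 8 and 9 and highest there for end 11. With end 3 and the other 4 members that change class counted as continued, the ratios were 36.3, 5.87 and 3.81 for the terminal and 2.23, 2.53 and 2.77 for the continued members. Scaled to the methylated spike-in reads the 883 continued members had ratios of 0.101, 0.376 and 0.495, all lower after oxidation and in the same order.

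**Figure D1:**
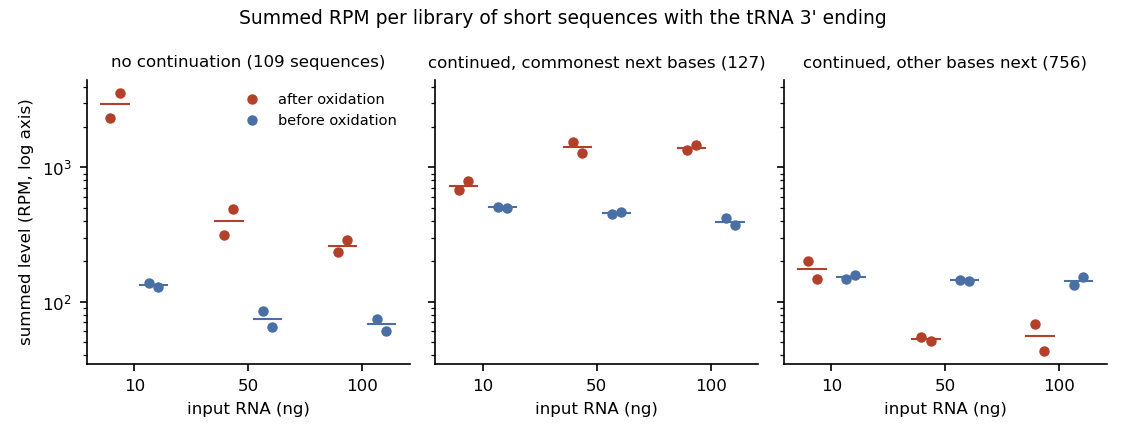
Summed RPM (vertical log axis) of short CCA-ended sequences in each of the 12 libraries, by input RNA (horizontal axis), after oxidation left of before; points are libraries and lines their means. Members with no continuation reach 2347 and 3596 RPM after oxidation at 10 ng, while continued members followed by TGG (middle panel, the commonest next bases by RPM) reach 1282 to 1537 RPM at 50 and 100 ng and those followed by other bases lie at 42.6 to 67.8 RPM there.

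The bases that follow the CCA in longer sequences split the continued members further. The 8 continued members whose mean reached 5 RPM were all followed by TGG. Over all continued members TGG followed in 127 of 883, which held 92.6% of the continued RPM after oxidation and 75.6% before it. Among all 94505 places where a CCA ended at base 17 to 22 of a longer sequence, TGG followed at 1.96%. Weighted by RPM it followed at 2.92% and ranked 6 among all triplets there.

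Continued members followed by TGG summed to 673 and 793 RPM after oxidation at 10 ng, 1537 and 1282 RPM at 50 ng and 1339 and 1467 RPM at 100 ng. Before oxidation they had 507 and 502 RPM at 10 ng, 448 and 465 RPM at 50 ng and 418 and 371 RPM at 100 ng. The 756 continued members followed by other bases had 201 and 147 RPM after oxidation at 10 ng, 54.4 and 51.2 RPM at 50 ng and 67.8 and 42.6 RPM at 100 ng, against 132 to 158 RPM in the 6 libraries before it. In RPM, the members followed by TGG were higher after oxidation at every input, whereas those followed by other bases were lower at 50 and 100 ng. End 1 alone averaged 919 RPM after oxidation and 357 RPM before it, of 1182 and 452 RPM in the members followed by TGG.

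The other endings were divided in a similar way at 50 and 100 ng. Other sequences of 17 to 22 nt followed by TGG summed to 21311 ± 1646 RPM after oxidation and 5377 ± 441 RPM before it, and the remaining ones to 13038 ± 7416 RPM after and 19452 ± 698 RPM before (SD, n = 6 libraries each). For those followed by TGG the ratio of means, after over before, for 10, 50 and 100 ng was 4.58, 3.88 and 3.52. For the remaining ones it was 1.10, 0.467 and 0.421, so that they were not lower at 10 ng. Of 455 tested others that continued in a longer sequence, 315 were followed by TGG. The labels' protocol lists Illumina TruSeq among several library methods, and the 3′ adapter of that maker's small RNA kits begins with TGG. The sources used here do not say how adapters were removed, and its part in these values was not tested.

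By length, the members of 17 nt held the most, with 1437 ± 525 RPM after oxidation and 380 ± 53.7 RPM before it. They made up 24.9 ± 2.18% of all 17-nt RPM after oxidation and 16.4 ± 2.24% before it. At 18 nt the share was 7.67 ± 5.90% after and 2.82 ± 0.942% before, at 19 nt 3.29 ± 1.00% after and 0.873 ± 0.0593% before, and at 20 nt 5.16 ± 0.520% after and 2.94 ± 0.273% before. At 21 nt it was 0.794 ± 0.208% after and 0.896 ± 0.0784% before, and at 22 nt 0.929 ± 0.163% after and 0.873 ± 0.164% before (SD, n = 6 libraries each). At 17, 19 and 20 nt every library after oxidation was above every one before it, and at 18, 21 and 22 nt the states overlapped.

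The classes had different lengths. Terminal members averaged 649 RPM after oxidation and 40.5 RPM before it at 17 nt, 403 RPM after and 37.3 RPM before at 18 nt, 110 RPM after and 8.06 RPM before at 19 nt and 42.3 RPM after and 2.74 RPM before at 20 nt. At 21 and 22 nt they were under 5 RPM in both states. Continued members had their main levels at 17 nt, with 788 RPM after and 340 RPM before, and at 20 nt, with 259 RPM after and 92.7 RPM before. CCA-ended sequences of 23 to 40 nt, which are outside the rule, had 4600 ± 230 RPM after oxidation and 4500 ± 369 RPM before it.

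**Figure D2:**
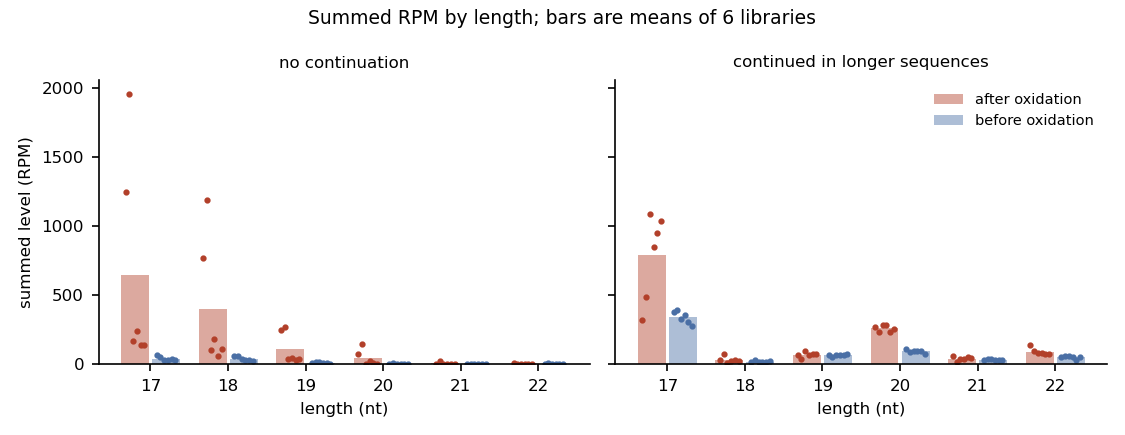
Summed RPM (vertical axis) by length in nt (horizontal axis) for members with no continuation (left) and continued members (right), after oxidation left of before; bars are means of 6 libraries and points the libraries. At 17 and 18 nt the 2 libraries from 10 ng after oxidation stand far above the others among members with no continuation, while among continued members at 17 nt they are the 2 lowest after oxidation.

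Single members were tested where their mean over the 12 libraries was at least 5 RPM, in a fit over all 22726 sequences of the table that passed this filter (limma-trend on log2 of RPM + 1, Benjamini-Hochberg adjustment over all 22726, called below 0.05). Only 24 of the 992 members passed, 16 terminal and 8 continued. The 16 terminal ones belong to ends 2, 3, 4, 5, 6, 10 and 12, with 4 each from ends 3 and 6. Many are thus forms of the same end and not independent sequences. The last to pass was end 6 of 20 nt, with a mean of 5.26 RPM, and the first below the filter was end 15 of 19 nt, with 3.94 RPM. For 14 of the 24 the mean before oxidation was under 5 RPM, so they passed through their level after it and had to be higher there; their count supports nothing.

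Averaged over inputs, 20 of the 24 rose after oxidation in RPM and 0 fell, against 21.2% called higher and 22.8% called lower among all 22726 sequences. The 20 were 14 of the 16 terminal and 6 of the 8 continued members. Without the 10 ng libraries 22 were called, all higher, against 24.6% called higher and 13.1% called lower among all sequences. Scaled to the methylated spike-in reads, 16 were called, of which 7 were higher and 9 lower, against 0.77% called higher and 87.3% called lower among all. Of the 10 tested members with at least 5 RPM before oxidation, 9 were called, and their median log2 fold change was 1.56, against -0.14 for all sequences tested. The filter also used the level after oxidation, so members near 5 RPM that fell were kept out of these 10. All sequences tested were not chosen by their level before oxidation, so this comparison is a description.

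Selecting by the level before oxidation alone gave 12 members with at least 5 RPM, of which 10 were higher after it and 2 were at 0 in all 6 libraries. Both were continued members of 19 nt that failed the filter and were not tested. The share that was higher among all sequences chosen in this way is not given here, so these counts are a description. End 15 of 19 nt, followed in longer sequences by TAT, had 10.0 and 8.35 RPM at 10 ng, 7.37 and 7.17 RPM at 50 ng and 6.41 and 7.93 RPM at 100 ng before oxidation, from 139 reads in all. Taking 3 reads per library as the floor, 1.20 RPM on average, it was at least 6.58-fold lower after oxidation. The other, of end 19 and followed by GGG, averaged 5.61 RPM before oxidation.

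At single inputs fewer members passed. At 10 ng 16 of the 24 rose and 0 fell, against 21.4% called higher and 31.5% called lower among all sequences. These were 14 of the 16 terminal and 2 of the 8 continued members. At 50 ng 12 rose and 0 fell, against 5.77% higher and 3.44% lower among all, and at 100 ng 7 rose and 0 fell, against 1.91% higher and 2.16% lower among all. Without either of the 2 libraries after oxidation at 10 ng the counts at 50 and 100 ng were higher. At 100 ng the count was lower without any 1 of the 4 libraries at 100 ng. At 50 ng it was lower without either library before oxidation at 50 ng or without replicate 2 after it. Calls over all sequences moved the same way in each of these fits. The median log2 fold change of the tested terminal members for 10, 50 and 100 ng was 4.56, 2.56 and 2.03, and that of the continued members 0.50, 1.55 and 1.85. Over all sequences tested the medians were -0.69, 0.20 and 0.25. The members' medians are of those that passed the filter, many through their level after oxidation, and are a description.

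**Figure D3:**
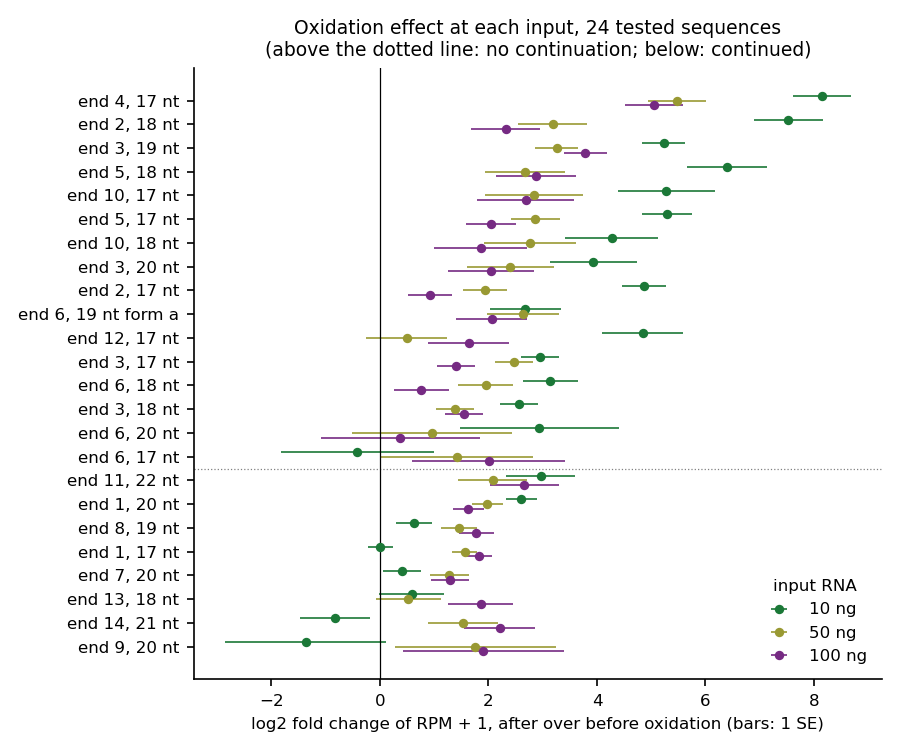
Log2 fold change of RPM + 1, after over before oxidation (horizontal axis, bars 1 SE from the limma fit), at 10, 50 and 100 ng for each of the 24 tested members. In 15 of the 16 members with no continuation the value at 10 ng is above that at 100 ng, and in 6 of the 8 continued members it is below. Some of the former passed the filter only through the libraries after oxidation at 10 ng, so these counts are a description.

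End 4 of 17 nt, a terminal member and the only one with this end, changed most. It had 395 and 563 RPM after oxidation at 10 ng, 47.8 and 72.1 RPM at 50 ng and 26.9 and 38.5 RPM at 100 ng. Before oxidation it had 1.79 and 0 RPM at 10 ng, 0.388 and 0.299 RPM at 50 ng and 0 RPM in both libraries at 100 ng. The 2448 reads after oxidation thus stood against 7 reads before it, and every library after oxidation was above every one before. The log2 fold change over inputs was 6.22 ± 0.31 (SE; limma adjusted p = 3.75e-06), on a scale where 1 RPM is added, and it was 3.43 with 10 RPM added and 8.60 with 0.1 RPM added.

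End 2 had the highest level among the terminal ends. Its 4 members summed to 765 and 1177 RPM after oxidation at 10 ng, 71.5 and 112 RPM at 50 ng and 56.2 and 74.5 RPM at 100 ng, against 13.1 to 28.2 RPM in the 6 libraries before it. The 17-nt form held 61.5% of it and the rest was almost all of 18 nt. The 17-nt form had a log2 fold change of 2.58 ± 0.24 (limma adjusted p = 5.52e-05), which turned to -0.33 when scaled to the methylated spike-in reads. The 18-nt form had 4.34 ± 0.37 (limma adjusted p = 3.86e-05) and stayed positive, at 1.79, on that scale. The 18-nt form had 146 ± 186 RPM after oxidation and 2.47 ± 1.56 RPM before it, and the 17-nt form 226 ± 290 RPM after and 18.2 ± 5.94 RPM before (SD, n = 6 libraries each).

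End 3 was spread over 5 lengths, from 17 to 21 nt, with the 18-nt form holding 37.4%. Together they had 634 and 798 RPM after oxidation at 10 ng, 111 and 156 RPM at 50 ng and 79.8 and 99.5 RPM at 100 ng. Before oxidation they had 71.1 and 70.1 RPM at 10 ng, 32.2 and 23.6 RPM at 50 ng and 22.9 and 21.0 RPM at 100 ng. All libraries after oxidation were above all those before it. The log2 fold change was 2.27 ± 0.20 at 17 nt, 1.83 ± 0.20 at 18 nt, 4.09 ± 0.23 at 19 nt and 2.79 ± 0.46 at 20 nt (SE, all 4 called by limma). Scaled to the methylated spike-in reads the 18-nt form turned to -1.07 and the 19-nt form stayed at 1.55. The difference between forms was not tested.

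End 5 had 318 and 495 RPM after oxidation at 10 ng, 35.2 and 53.4 RPM at 50 ng and 22.7 and 25.3 RPM at 100 ng, against 3.04 to 8.71 RPM in the 6 libraries before it. Its 18-nt form had a log2 fold change of 3.98 ± 0.43 and its 17-nt form one of 3.40 ± 0.26 (limma adjusted p = 0.000128 and 2.52e-05). End 6, which differs from end 3 by the base given above, was about as spread in length. It had 101 and 223 RPM after oxidation at 10 ng, 31.7 and 45.9 RPM at 50 ng and 23.9 and 23.7 RPM at 100 ng, against 5.18 to 22.1 RPM before it. Its 17-nt and 20-nt forms were the 2 terminal members not called, with adjusted p of 0.357 and 0.209. For both, the 2 libraries after oxidation at 10 ng lay far apart, with 0 and 39.0 RPM at 17 nt and 0.462 and 53.5 RPM at 20 nt.

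**Figure D4:**
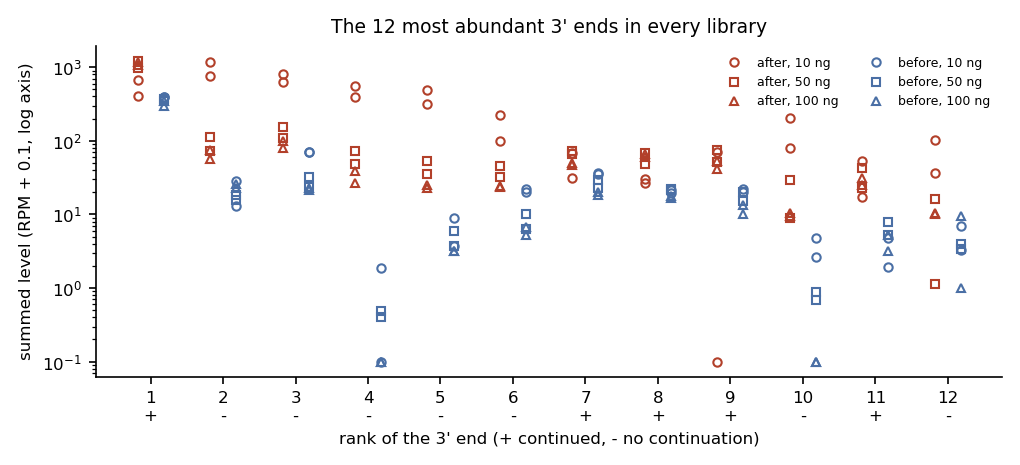
Summed RPM + 0.1 (vertical log axis) of the 12 most abundant shared 3′ ends (horizontal axis, by rank) in each library, after oxidation left of before, with a symbol for each input. For ends 2 to 5, all without continuation, the 2 libraries from 10 ng after oxidation stand above all others, and end 4 is near 0 before oxidation.

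End 1, the continued end with the highest level, behaved differently at 10 ng. Its 17-nt form had 288 and 483 RPM after oxidation at 10 ng, 1075 and 840 RPM at 50 ng and 933 and 1030 RPM at 100 ng. Before oxidation it had 368 and 374 RPM at 10 ng, 310 and 332 RPM at 50 ng and 293 and 257 RPM at 100 ng. At 10 ng the states overlapped and the log2 fold change was 0.01 (limma adjusted p = 0.98), while it was 1.56 at 50 ng and 1.83 at 100 ng (adjusted p = 0.00398 and 0.00263). Its 20-nt form, which starts 3 bases further upstream, had 123 to 186 RPM after oxidation and 20.3 to 48.6 RPM before it, with the largest effect at 10 ng (2.61). Averaged over inputs the 17-nt form had 1.14 ± 0.13 and the 20-nt form 2.07 ± 0.16, and both were negative when scaled to the methylated spike-in reads (-1.85 and -0.87).

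Other continued members led at other lengths. End 8 of 19 nt had 27.0 to 67.0 RPM after oxidation and 15.5 to 20.7 RPM before it, with a log2 fold change of 1.29 ± 0.19. End 7 of 20 nt had 30.7 to 65.4 RPM after oxidation and 16.8 to 34.3 RPM before it, with 0.99 ± 0.20. End 11 of 22 nt had 17.1 to 52.3 RPM after oxidation and 1.82 to 6.98 RPM before it, with 2.57 ± 0.37 (limma, all 3 called). Scaled to the methylated spike-in reads these were -1.58, -1.90 and -0.10.

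At 21 nt end 14 led with 8.43 ± 8.11 RPM after oxidation and 2.10 ± 1.42 RPM before it, and was not called (adjusted p = 0.062). It was at 0 RPM in both libraries after oxidation at 10 ng. End 9 of 20 nt was also not called (adjusted p = 0.511), with 0 RPM in 1 library after oxidation at 10 ng and 40.3 to 73.9 RPM in the other 5. Next at 21 nt came end 8, with 2.93 ± 2.66 RPM after oxidation and 1.87 ± 1.22 RPM before it, and next at 22 nt end 18, with 6.66 ± 3.67 RPM after and 1.02 ± 0.808 RPM before. Neither of these passed the filter.

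Calls between 10 and 100 ng came mainly after oxidation, among the members as among all sequences. At 10 against 100 ng after oxidation, 13 members, all terminal, were higher and 3, all continued, were lower, against 12.5% higher and 28.8% lower among all sequences. In the same chosen members the median log2 difference was 3.64 for the terminal and -0.86 for the continued ones, and -0.72 over all sequences tested. Some terminal members passed the filter only through the libraries after oxidation at 10 ng. End 12 of 17 nt averaged 54.3 RPM there, 1.29 and 3.64 RPM at 50 and 100 ng after oxidation and 0.608 RPM before. For such members the filter favoured a higher level at 10 ng. The count of 13 and these medians are thus a description. The 3 lower ones were end 1 of 17 nt (-1.39), end 8 of 19 nt (-0.96) and end 14 of 21 nt (-4.20). Before oxidation, 10 against 100 ng called 1 member higher and 0 lower, against 1.06% higher and 0.744% lower among all. That member was end 3 of 18 nt, with 37.5 and 42.8 RPM at 10 ng against 10.8 and 10.4 RPM at 100 ng (limma adjusted p = 0.038). This call was lost without any 1 library at 100 ng or any 1 library before oxidation at 10 or 50 ng. Without either library after oxidation at 10 ng more members were called, and so were more of all sequences.

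Between 50 and 100 ng, limma called 0 members after oxidation and 0 before it, and likewise 0% of all sequences higher and 0% lower in each state. At an unadjusted p under 0.05 there were 0 members after oxidation and 1 before it. edgeR and DESeq2 on the recovered reads also called 0 members in both. The effect of oxidation differed with input for 7 of the 24 tested members by the moderated F test of the interaction. Among all sequences 23.1% were called, a share not far from this, so the count is not particular to the members. Of the 7, 6 were terminal and had a larger effect at 10 than at 100 ng, and 1, end 1 of 17 nt, had a smaller one. Of the 6, end 12 of 17 nt passed the filter only through the libraries after oxidation at 10 ng. The count of members was higher without replicate 1 after oxidation at 10 ng. It was lower without replicate 1 before oxidation at 10 ng or replicate 2 before it at 50 ng. It was also lower without any 1 of the 4 libraries at 100 ng. Calls over all sequences moved the same way in each of these fits.

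The smallest p of the interaction belonged to end 2 of 17 nt, with log2 fold changes of 4.87, 1.93 and 0.92 for 10, 50 and 100 ng (limma adjusted p = 0.00371). End 2 of 18 nt followed, with 7.52, 3.19 and 2.32 (limma adjusted p = 0.00672). End 1 of 17 nt came next, with the reverse order given above (limma adjusted p = 0.00685).

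Against the other endings, CCA was among those with the most change. Of the 64 possible last 3 bases at 17 to 22 nt, CCA ranked 2 by its share after oxidation and 8 before it, and its gain of 3.80 percentage points came next to that of TCA (4.43). The summed RPM of CCA-ended sequences differed by 1.85 on the log2 scale of the ratio of means, the highest of the 64, with TCA at 1.81 and a median of 0.25 over the 64. Without the terminal members CCA stood at 1.09. At single inputs CCA ranked 2 at 10 ng (2.30, beside 2.31 for TCA), 6 at 50 ng and 3 at 100 ng.

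**Figure D5:**
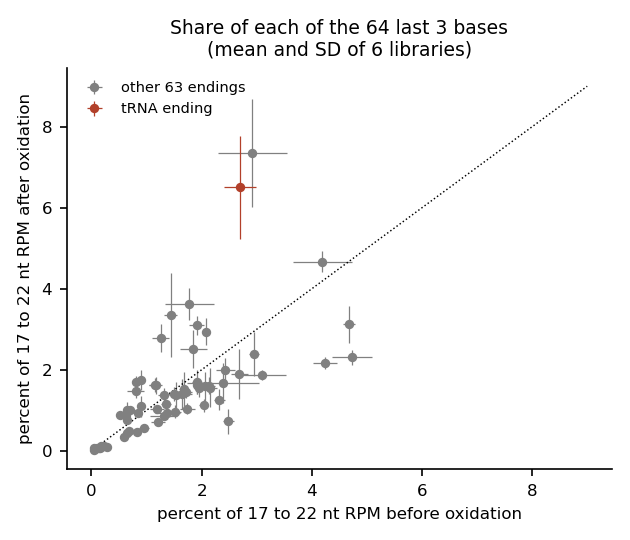
Percent of the 17 to 22 nt RPM held by each of the 64 possible last 3 bases after oxidation (vertical axis) against before oxidation (horizontal axis), as mean and SD of 6 libraries; the dotted line marks equal shares. The tRNA ending lies at 6.50% after and 2.70% before oxidation, beside 1 other ending, TCA, that lies higher.

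The classes also differed in where their sequences occur in annotated transcripts. All 16 tested terminal members occurred in full, CCA included, in a GENCODE M21 transcript (GRCm38) on 1 strand or the other, against 0 of the 8 tested continued members and 106 of the 469 other tested sequences of 17 to 22 nt. Of the 16, 4 matched only the antisense strand, 2 only the sense strand and 10 both. Over all members the counts were 70 of 109 terminal and 208 of 883 continued ones, and 29195 of 105022 others. These are exact matches of short sequences and do not show where a molecule came from. As background, the primer binding sites of retroviruses and of their copies in the genome are complementary to tRNA 3′ ends, CCA included.

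At 17 and 18 nt, ends 3 and 6 both matched the sense strand of the lincRNA gene Gm12505 (chr4:55410443-55418842) and the antisense strand of Gm20400 (chr6:142161493-142173796). At 19 and 20 nt, the tested forms of end 3 matched Gm12505 only, and those of end 6 matched Gm20400 but not Gm12505. End 4 matched the antisense strand of BC048559 (chr10:41746721-41783437) and of the pseudogene Vmn2r-ps104 (chr13:66350919-66401873). End 5 matched the antisense strand of 3 genes, among them Gm43305 (chr14:54292443-54297456), and end 12 that of Fgg (chr3:83007724-83015049), which encodes the fibrinogen gamma chain. The coordinates are those of the genes in GRCm38.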

How the data were processed

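The authors deposited a table of piRNA-length sequences and a miRNA table in RPM and a table of spike-in read counts. The submitters' processing notes name Bowtie, with no version, and the builds mm10 and hg38; the RPM denominator and the adapter trimming are not given in the sources used here. In every library 100% of the piRNA values came out as whole reads within 0.01 of a read, with denominators of 1924201 to 3347735 reads, and 0 columns of per-sample values were left unused. The SE and p values cover the spread between technical replicate libraries. The reads carry no molecular identifiers as far as the labels say.

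Sequences averaging 5 RPM or more over the 12 libraries (22726) entered a limma-trend fit of log2(RPM + 1) with 6 group means (R 4.3.3, limma 3.58.1). The fit was also run on simulated data, drawn with the same spread in all libraries, unlike these data. Interaction of oxidation with input was a moderated F test. Alternatives were edgeR 4.0.16 and DESeq2 1.42.0 on the recovered whole reads, other pseudocounts, filters and scalings, a replicate block and each library left out. With TMM, edgeR called 18 members on oxidation averaged over inputs, against 3076 sequences called higher and 7521 lower among all 22726. Sums over members carry no test. Matches to transcripts were exact over the full length.

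Named members were, by a rule, the 2 highest at each length, the 4 largest rises (with a mean of at least 10 RPM; there were no falls), the 3 smallest interaction p and the 6 highest 3′ ends; others named were chosen after their values were seen. The members and lists were chosen with earlier results of these data known. Sequences on a chromosome not reported here are named by rank only.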

Additional observations from a re-analysis of the deposited data

Results flagged for a closer look

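The effect of oxidation differed between inputs for 7 of the 24 tested members, by the moderated F test of the interaction in limma. Adjustment was over all 22726 sequences, of which 23.1% were called, a share not far from that of the members. Both moved when single libraries were left out. The size given is the log2 fold change at 10 ng minus that at 100 ng. It was 3.95 ± 0.58 (SE) for end 2 of 17 nt, 5.20 ± 0.90 for end 2 of 18 nt and 3.25 ± 0.65 for end 5 of 17 nt. For end 4 of 17 nt it was 3.09 ± 0.75, for end 12 of 17 nt 3.21 ± 1.05 and for end 5 of 18 nt 3.53 ± 1.04. These 6 are terminal members, and end 12 of 17 nt passed the filter only through the libraries after oxidation at 10 ng. For end 1 of 17 nt, a continued member, it was -1.83 ± 0.32. The adjusted p lay between 0.00371 and 0.0439 over the 7. Each fold change at 10 ng rests on 2 libraries after oxidation that agreed less with each other than the other replicate pairs did, and the part of this in the interaction was not tested.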

How the results depend on the processing

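Scaling changed signs. Scaled to the methylated spike-in reads, the log2 fold change over inputs turned negative for end 1 of 17 nt (-1.85) and of 20 nt (-0.87), end 2 of 17 nt (-0.33), end 3 of 18 nt (-1.07), end 7 of 20 nt (-1.90), end 8 of 19 nt (-1.58), end 11 of 22 nt (-0.10), end 14 of 21 nt (-0.66, not called in RPM and also negative with edgeR and DESeq2) and the summed members (-1.24). Scaled to all spike-in reads it was -1.51, -0.54, -0.01 (-0.00521), -0.74, -1.58 and -1.26 for the first 6 of these. Ends 4 (17 nt), 5 (18 nt), 2 (18 nt) and 3 (19 nt) stayed higher and called under both.

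Counts of members called moved as follows, in the order oxidation at 10, 50 and 100 ng, then 10 against 100 ng after and before oxidation, then the interaction, from 16, 12, 7, 16, 1 and 7. A filter of 50 RPM, which left 6 members, gave 5, 6, 5, 5, 1 and 4, and 6 in place of 20 over inputs. Among all 1789 sequences past that filter, 520 were called higher and 582 lower over inputs. Without a filter all 992 members were tested among 1018402 sequences, which gave 14, 3, 1, 4, 0 and 1, and 22 over inputs. There 2118 of all sequences were called higher and 4654 lower over inputs. At 100 ng the count was 20 with only the libraries compared, 13 with DESeq2, 4 with edgeR and TMM, and 3 scaled to all spike-in reads. At 50 ng either spike-in scaling gave 6. For 10 against 100 ng before oxidation it was 7 with only the libraries compared or all spike-in reads, 4 with methylated spike-in reads, and 2 with edgeR, DESeq2 or 0.1 RPM added. For the interaction it was 4 with either edgeR fit or 0.1 RPM added and 12 with 10 RPM added. The share called over all sequences also changed with the setting, so these counts are not read as results about the members.

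With the replicate block the counts were 16, 9, 5, 16, 0 and 7, and 20 over inputs. The replicate numbers share only a label, since the 15 correlations of same-numbered deviations lay between -0.0549 and 0.00996. Leaving out each library gave 19 to 23 over inputs, 15 to 19, 6 to 19, 3 to 18, 14 to 19, 0 to 5 and 4 to 15, in the order above.

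The summed log2 difference of 1.75 was 1.55 over reads other than miRNA reads, 2.08 in members of at least 5 RPM and 0.00241 in those below, 1.55 to 1.85 without single libraries and 1.49 without the 10 ng libraries (added after seeing the data). The gain in share of 3.80 points was 2.71 without the top member, 2.44 without end 1, 3.25 without 10 ng and 3.34 to 4.00 without single libraries. Counting any longer sequence as a continuation, also added later, left terminal sums of 898 ± 1108 RPM after oxidation and 50.9 ± 10.6 RPM before it, and continued ones of 1589 ± 112 RPM after and 638 ± 76.1 RPM before; end 3 then counts as continued. The subset matching tRNA genes gave no value, as 0 members matched. Depth limits most members: 841 of 992 had fewer than 10 reads.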
